A study of Mus musculus with 4 samples.

Results

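The genes studied here encode the partners of Toll-like receptor 4 (TLR4), the receptor for bacterial lipopolysaccharide (LPS), and the first signalling proteins below it. The 10 genes were listed by name: Cd14, Ly96, Myd88, Tirap, Ticam1, Irak1, Irak2, Irak3, Irak4 and Traf6. All 10 were found among 21887 protein-coding genes on the primary chromosomes. Their chromatin was described from peaks of trimethylated lysine 4 of histone H3 (H3K4me3) at the gene starts and of trimethylated lysine 9 of histone H3 (H3K9me3) over the gene bodies.

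The cells were peritoneal macrophages drawn out with thioglycollate broth from C57BL/6 mice aged 8 weeks and made adherent in dishes. They were then kept for 24 h with LPS, or with phosphate-buffered saline (PBS) as the control. Chromatin immunoprecipitation and sequencing gave 4 libraries, LPS and PBS for each of the 2 marks, and each of the 4 groups held 1 library. No genetic change is named in the labels, and no difference between treatments has a replicate check. How many animals were pooled for a library is not given in the sources used here.

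LPS is passed by the binding protein LBP to CD14 and on to the complex of TLR4 with MD-2, the product of Ly96. From the activated receptor one arm runs through the adaptors TIRAP and MyD88 to the kinases IRAK4, IRAK1 and IRAK2 and to the ubiquitin ligase TRAF6, and ends in NF-kB and MAP kinase signalling. The other arm runs through the adaptor TRIF, the product of Ticam1, and leads to interferon. IRAK3, also called IRAK-M, is a brake on the first arm. H3K4me3 is found at the starts of active and poised genes, and H3K9me3 marks heterochromatin and silenced repeats.

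The promoters of 4 of these genes are shown because the results turn on them. At Myd88 and Irak2 the difference between the libraries depended on how far the peaks reached. Irak4 had fewer tags in LPS over the stretch it shares with a neighbour, and Traf6 had the densest mark. The sequences are the 250 bases before the annotated start, and for Irak4 the 78 bases between its own outer end and that of its neighbour Pus7l. They are RefSeq sequences of build GRCm38.p6, written 5′ to 3′ on the strand of the gene, and capitals mark matches to the motifs named after them.
Myd88 (chr9:119340019-119340268, - strand): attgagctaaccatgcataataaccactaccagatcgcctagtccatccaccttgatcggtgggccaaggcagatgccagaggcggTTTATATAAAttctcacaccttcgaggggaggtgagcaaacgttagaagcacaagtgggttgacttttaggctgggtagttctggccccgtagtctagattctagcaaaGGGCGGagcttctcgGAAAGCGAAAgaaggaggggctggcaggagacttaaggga
Irak2 (chr6:113638217-113638466, + strand): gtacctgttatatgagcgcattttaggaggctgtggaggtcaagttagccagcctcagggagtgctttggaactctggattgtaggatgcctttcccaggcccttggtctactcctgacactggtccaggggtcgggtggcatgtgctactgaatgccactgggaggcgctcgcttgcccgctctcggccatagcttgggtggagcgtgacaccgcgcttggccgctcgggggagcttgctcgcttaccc
Traf6 (chr2:101678170-101678419, + strand): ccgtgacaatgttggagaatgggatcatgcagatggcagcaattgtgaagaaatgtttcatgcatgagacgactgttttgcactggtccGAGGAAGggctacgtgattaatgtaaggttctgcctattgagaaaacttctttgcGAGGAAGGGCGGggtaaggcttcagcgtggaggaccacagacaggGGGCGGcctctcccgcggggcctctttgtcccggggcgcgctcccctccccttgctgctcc
Irak4 (chr15:94543535-94543612, + strand): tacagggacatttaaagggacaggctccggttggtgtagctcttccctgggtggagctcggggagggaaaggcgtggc

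Promoter sequences were at hand for 8 of the 10 genes, all but Cd14 and Ly96. The motifs searched on both strands, with any overlap allowed, were GGG, any 2 bases and TTTCC for NF-kB, GAAA, any 2 bases and GAAA for the interferon-stimulated response element, TGANTCA for AP-1, GAGGAAG for PU.1, CCGGAAG for ETS factors, GCGCATGC for NRF1, TATAAA for the TATA box and GGGCGG for the GC box. Irak1, Irak3 and Tirap have 2 listed starts, and a gene counts here if either has the letters, while the shares are over single promoters. The GC box letters were found upstream of 7 of the 8 genes, against 42.6% of 21263 promoters. They were missing at 1 of the 2 starts of Irak3 and of Tirap. Myd88 was the one with the interferon element letters, at 40 to 31 bases before the start (-40 to -31), and with TATA letters (-164 to -155, where the matches on the opposite strands overlap). These occur in 2.96% and 11.6% of promoters. PU.1 letters were found at Ticam1 and Traf6 (10.3% of promoters), ETS letters at Irak4, Ticam1 and Tirap (8.98%) and NRF1 letters at Irak4 (2.93%). The Irak4 matches lie in bases left out above, and 1 PU.1 match of Traf6 overlaps a GC box by 1 base. The NF-kB and AP-1 letters, which occur in 1.43% and 6.13% of promoters, were in none of these 8 windows. The 11 start sites of the 8 genes had a median of 13 CpG dinucleotides in 250 bases, against 10 over all promoters, with 6 at the farther of the 2 Irak3 starts and 21 at 1 of the 2 Tirap starts. A match is a description of letters and not of a bound site.

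Peaks had been called in each library separately and are given with the number of sequencing tags in them. The filtered H3K4me3 libraries held 26748289 tags in LPS and 29681491 in PBS, with 14.0% and 17.8% of them in peaks. The H3K9me3 libraries held 28586946 and 27727997 tags, with only 1.62% and 1.69% in peaks. The caller had kept at most 1 tag at each position, and the share of tags removed in this way was 0.15 in the H3K4me3 LPS library and 0.21 in the H3K4me3 PBS library. The cell type label was checked on H3K4me3. Of 9 macrophage markers, 8 had a start peak in both lists, Cd14 among them, and Spi1 in LPS only. Of the markers of other cells, 1 of 6 for T cells, 1 of 7 for neutrophils, 1 of 5 for eosinophils and mast cells, and 3 of 7 for mesothelium and fibroblasts were in both lists. In the same order these were Lck, Csf3r, Kit, and Wt1, Col1a1 and Pdgfrb, and the T cell gene Cd5 was in PBS only. Cd3e, S100a9, Siglecf and Msln were among the markers in neither list. Levels are given as CPM, tags in peaks per 1000000 filtered tags. The neutrophil genes S100a8 and Camp were listed in LPS only and Mmp8 in PBS only, and the summed level of the neutrophil list was 11.9 CPM in LPS and 9.06 in PBS, and that of the macrophage list 84.6 and 81.9. The mesothelium and fibroblast list had 20.0 CPM in LPS and 26.8 in PBS, with Upk3b, Krt19 and Col1a2 listed in PBS only. The T cell list had 6.62 and 9.40, and the eosinophil and mast cell list 7.51 and 7.95. The part of these cells in the values below was not tested. In bulk chromatin, fewer cells with the mark and less mark per cell cannot be told apart, and each ratio compares the libraries and not the treatments.

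All 10 genes carried an H3K4me3 peak within 1 kb of the start in both lists, as did 61.7% of all protein-coding genes, while 34.5% had none and 1.07% were listed for LPS alone and 2.74% for PBS alone. With peaks of score 100 or more alone (the caller's minus 10 times the log10 of its p-value), 8 of the 10 stayed in both lists and 2, Myd88 and Irak2, were in PBS only. Over all genes 57.6% were then in both lists, 0.64% were listed for LPS alone and 3.5% for PBS alone. Myd88 and Irak2 did have LPS start peaks, with scores of 50.5 and 78.2. The Irak2 peak held more tags in LPS than in PBS (153 and 99). At Myd88 a further LPS peak, with a score of 326.8, began 1383 bp upstream and so fell outside the window. The start was the annotated one for 8 genes. For Cd14 and Ly96, whose strand was not at hand, it was the gene end with more tags. The level of the mark was ordinary for a marked gene. The members had between 120 and 292 tags in LPS (median 202) and between 99 and 706 in PBS (median 271.5), where all 13508 genes with a peak in both lists had medians of 200 and 290.

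Fewer tags in LPS were the rule in these libraries. After division by the filtered tags of each library, the LPS/PBS log2 ratio had a median of -0.37 over the 13508 genes, and 91.3% of them were below 0. Of the 10 members, 9 were below 0 and Irak2 was above, with a median of -0.20 and a range of -1.12 to 0.78. Relative to the median of all genes, 7 of the 10 lay above it. Myd88 and Irak4 were at least 2-fold lower in LPS, as were 3.83% of all genes, and no member was at least 2-fold higher, as were 0.333%.

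The same comparison in tags per covered kb, which divides out the length that the caller listed, placed the members on the other side. All 10 were then below 0, as were 81.6% of genes, and 2 of the 10 (Cd14 and Irak1) lay above the median of all genes. The median was -0.38 for the members and -0.21 for all genes. The median of the members thus stood above that of all genes by summed tags and below it by density, and neither difference was tested. No member and 0.074% of all genes were 2-fold lower in this measure, and no member and 0.0% of all genes were 2-fold higher. The listed length was longer in LPS for 5 of the 10 members and for 27.4% of all genes. It was at least 2-fold longer in LPS for Irak2 and at least 2-fold shorter for none of the 10, against 0.459% and 3.73% of genes.

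**Figure D1:**
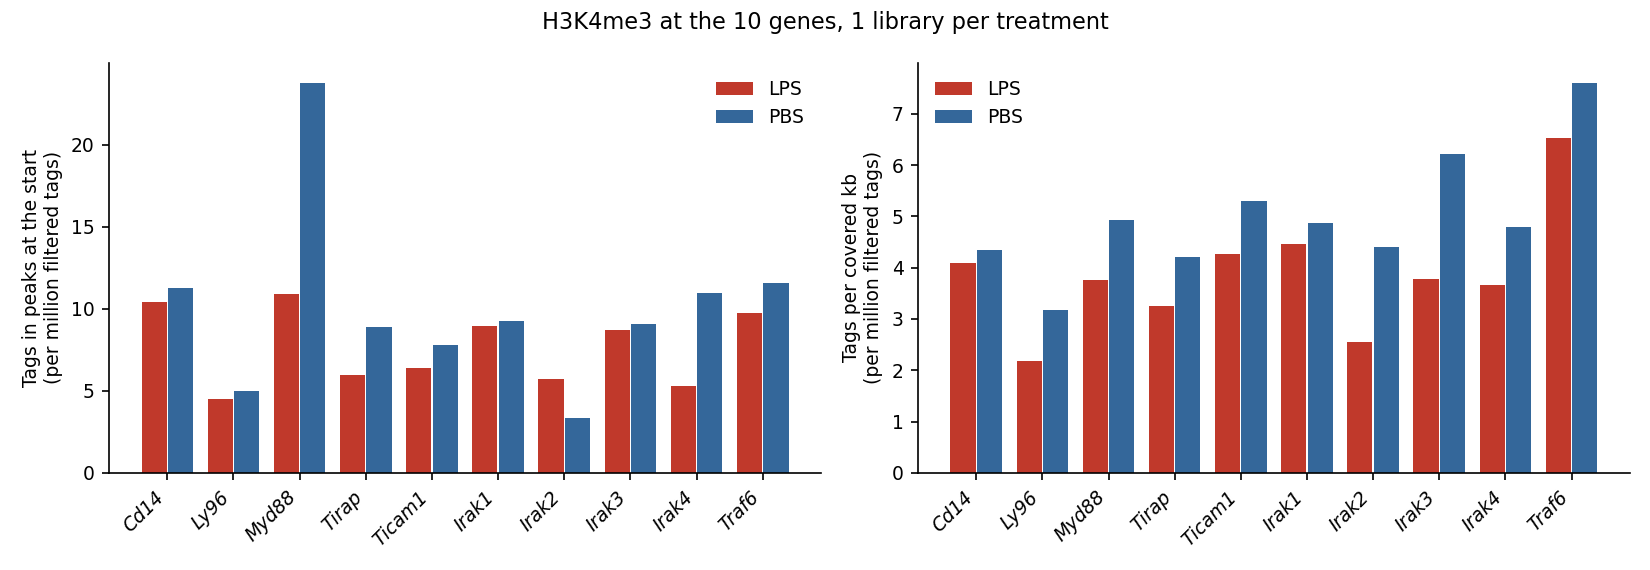
H3K4me3 at the 10 genes in the LPS library (red, left bar) and the PBS library (blue, right bar), as CPM in the start peaks (left panel) and the same per covered kb (right panel); bars are single libraries with no error. Irak2 is the gene with the higher bar in LPS on the left, at 5.72 against 3.34, and no gene is higher in LPS on the right.

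**Figure D2:**
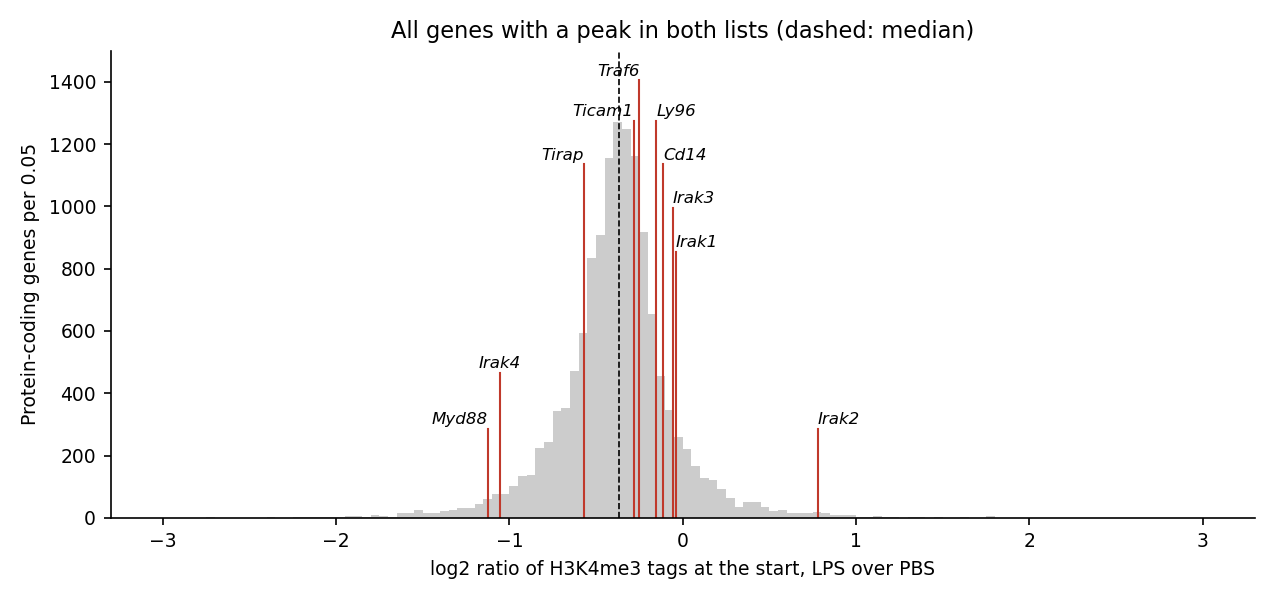
Histogram of the log2 ratio of H3K4me3 tags, LPS over PBS, at the starts of the 13508 protein-coding genes with a peak in both lists (grey; y axis, genes per bin), with the 10 members as red lines and the median of all genes (-0.37) dashed. Myd88 (-1.12) and Irak4 (-1.05) lie in the left tail and Irak2 (0.78) in the right tail.

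The receptor partners, which act first in the pathway, had small differences in summed tags. Cd14, which binds LPS at the cell surface and hands it on, lies on chromosome 18 (36725064 to 36726815) and is only 1752 bp long. A single peak covered nearly the whole gene in each library, with 279 LPS tags in 2.55 kb and 335 PBS tags in 2.60 kb. The log2 ratio was -0.11 with a 95% counting interval of -0.35 to 0.12, and -0.09 per covered kb. Its interval includes 0 and lies just above the median of all genes, and the ratio of Cd14 was 0.26 above that median.

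Ly96 encodes MD-2, the small protein that holds LPS in the receptor complex (chromosome 1, 16688456 to 16709605). It had the lowest H3K4me3 density of the 10 genes in both libraries, at 2.19 CPM per kb in LPS and 3.17 in PBS, or percentiles 6.31 and 14.0 of all genes with a peak in both lists. In LPS the mark was listed as 3 small peaks of 29, 55 and 36 tags, and in PBS as 2 peaks of 97 and 51 tags. The sums were 120 LPS tags and 148 PBS tags, a log2 ratio of -0.15 (-0.51 to 0.20), and -0.53 per covered kb. More LPS than PBS peaks over the merged stretch were seen at 2 of the 10 genes, Ly96 and Myd88, and at 4.78% of all genes. The peak on the gene end itself had 55 tags in LPS and 97 in PBS. The extra LPS peak, 211 bp outside the gene end, overlapped no PBS peak and was just past the caller's limit with a score of 54.97. Without the peaks below 100, the ratio was -0.67.

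The receptor gene itself, Tlr4, had 114 LPS tags and 171 PBS tags. Its log2 ratio was -0.43 (-0.79 to -0.08), close to the median of all genes. The PBS list held a second peak of 128 tags starting 1280 bp inside the gene that the LPS list did not have, so a window of 2.5 kb gave -1.24.

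The adaptor Myd88, which links the receptor to the IRAK kinases, had the lowest ratio of the 10 genes at the start, and the ratio depended on how its peaks were divided. Myd88 lies on the minus strand of chromosome 9 (119335934 to 119340018). The PBS library had 1 peak of 4.83 kb with 706 tags, which put it at percentile 94.3 of gene starts in that library. The LPS library had 2 peaks over the same stretch, 1 of 292 tags over the start and 1 of 331 tags that began 1383 bp upstream and so fell outside the 1 kb window. With the first of these alone, the log2 ratio at the start was -1.12 (-1.33 to -0.92). Over the merged region the counts were 623 tags in LPS and 706 in PBS, and the ratio was -0.03 (-0.19 to 0.13). A ratio of 2-fold or more lower at the start that came within 0.5 of 0 over the merged region was seen at 0.222% of genes.

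The upstream peak of LPS lay 107 bp from an annotated start of Acaa1a, which encodes a peroxisomal thiolase and runs the other way from Myd88. The nearest starts of the 2 genes are 1276 bp apart, and the PBS peak had its summit at -1567 bp from the Myd88 start (negative is upstream), on the side of Acaa1a. The merged region therefore describes the promoters of both genes. Within it, the LPS peak over the Myd88 start was weak by the caller's own measure, with a score of 50.5 and a fold enrichment of 3.20 over its local background, while the upstream peak of the same list had 326.8 and 6.90. The lowest score in the list was 50.

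Tirap, the bridging adaptor that brings MyD88 to the membrane (chromosome 9, 35184391 to 35200291), had 160 LPS tags in 1.84 kb and 264 PBS tags in 2.12 kb. The log2 ratio was -0.57 (-0.86 to -0.28) and -0.37 per covered kb. The whole interval is below 0 but holds the median of all genes. The LPS list alone had 2 further weak peaks, 1 of 28 tags inside the gene and 1 of 19 tags 597 bp beyond its other end, and with them the ratio was -0.20.

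Ticam1 encodes TRIF, the adaptor of the interferon arm (chromosome 17, 56269462 to 56276767). It had 171 tags in LPS and 231 in PBS over nearly equal lengths of 1499 and 1471 bp, and the log2 ratio was -0.28 (-0.58 to 0.01). The mark began at the start and ran into the gene, beginning at -75 bp in LPS and -24 bp in PBS. Relative to the median of all genes, the 3 adaptors lay at 0.09 for Ticam1, -0.20 for Tirap and -0.75 for Myd88.

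**Figure D3:**
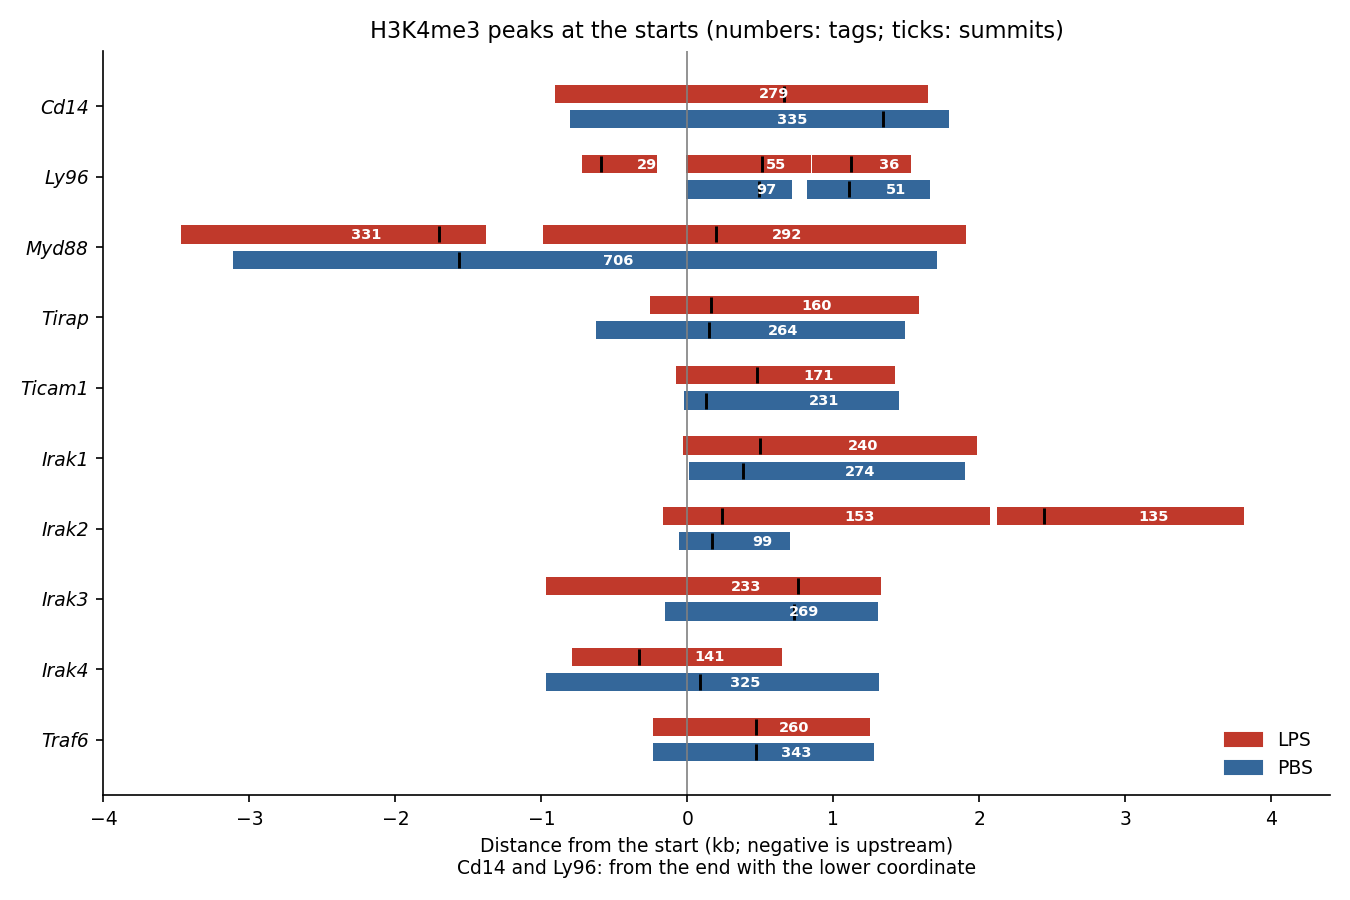
H3K4me3 peaks around the start of each gene, LPS (red) above PBS (blue), on an axis of distance from the start in kb, negative upstream (Cd14 and Ly96 from the end with the lower coordinate); white numbers are tags per peak and black ticks are summits. Myd88 shows 2 LPS peaks above 1 PBS peak, and Irak2 shows LPS peaks that reach farther into the gene than the PBS peak of 99 tags.

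Of the kinases, Irak4, which starts the cascade by phosphorylating the other IRAK proteins, had the lowest ratio at the start. It lies on chromosome 15 (94543613 to 94568317) and had 141 LPS tags in 1.44 kb and 325 PBS tags in 2.28 kb. Because each list held 1 peak here, the start, a window of 2.5 kb and the merged region took in the same tags. The log2 ratio was therefore the same in all of them, at -1.05 (-1.35 to -0.77). Only 3.39% of genes were 2-fold lower over merged regions. Per covered kb it was -0.39, and the LPS peak was shorter on both sides. The summit lay at -329 bp from the start in LPS and 84 bp downstream in PBS. Irak4 shares this region with Pus7l, a pseudouridine synthase gene on the other strand with a start 153 bp away, so the value describes both promoters. The promoter stretch printed above lies between these genes.

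Irak1, on the X chromosome (74013914 to 74023921), encodes the kinase that carries the signal on to TRAF6. It had 240 LPS tags in 2.01 kb and 274 PBS tags in 1.90 kb, with a log2 ratio of -0.04 (-0.30 to 0.21). This was 0.33 above the median of all genes, which lies below the interval. Annotated microRNA genes, Mir718 and Mir5132, lie under the same peak and cannot be told apart from Irak1 by it.

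Irak2, the kinase that sustains the later phase of the response, was the one gene with more tags in LPS at its start (chromosome 6, 113638467 to 113695026, plus strand). It had 153 tags in LPS and 99 in PBS, with a log2 ratio of 0.78 (0.40 to 1.16), at percentile 99.3 of all genes. More tags in LPS were seen at 8.67% of genes. The peaks differed mainly in length. The LPS peak ran from -164 to 2074 bp from the start (2.24 kb), and the PBS peak from -55 to 701 bp (0.757 kb). The length ratio lay at percentile 99.9 of all genes.

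A further LPS peak of 135 tags followed on the first after a short gap, from 2120 to 3812 bp into the gene, where the PBS list had none. With a window of 2.5 kb the counts were 288 tags in LPS and 99 in PBS, and the log2 ratio was 1.69. Per covered kb the sign was the opposite, at -0.79, the lowest of the 10 genes. By the authors' values for each peak, the start peak had a score of 78.2 and a fold enrichment of 5.03 in the LPS list, and 227.0 and 7.36 in the PBS list. These rank a peak within its own list only. More tags in LPS with a lower density was the pattern at 4.54% of genes. The mark over the first part of Irak2 was thus listed over a longer stretch of lower mean density in LPS and a shorter, denser one in PBS. The height of the peaks was not measured.

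Irak3, the inhibitory member of the family, showed the same kind of difference in length, while its tags differed by no more than counting error (chromosome 10, 120141648 to 120202130, minus strand). It had 233 LPS tags in 2.30 kb and 269 PBS tags in 1.46 kb. The log2 ratio was -0.06 (-0.32 to 0.20), and -0.72 per covered kb. The interval includes 0 and lies above the median of all genes. The length ratio lay at percentile 98.4. The LPS peak reached to -971 bp from the outer start and the PBS peak to -151 bp, while both summits were near the inner of the 2 annotated starts, at 759 and 733 bp. The long noncoding gene Gm38500 runs the other way from a start 7 bp from an Irak3 start, so the upstream part of the LPS peak lies over it.

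Traf6, the ubiquitin ligase on which the IRAK kinases converge (chromosome 2, 101678420 to 101701668), had the highest density of the 10 genes in both libraries. It had 260 LPS tags in 1.49 kb and 343 PBS tags in 1.52 kb, or 6.53 and 7.61 CPM per kb (percentiles 88.8 and 90.7). The peaks were nearly identical in place: both began at -238 bp, and the summits were 469 and 473 bp downstream in LPS and PBS. The log2 ratio was -0.25 (-0.49 to -0.01), 0.12 above the median of all genes.

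The order of the 10 genes by density ran in LPS from Ly96 (2.19 CPM per kb) through Irak2 (2.55) and Tirap (3.25) to Irak1 (4.46) and Traf6 (6.53). In PBS it ran from Ly96 (3.17) through Tirap (4.20) and Cd14 (4.34) to Irak3 (6.22) and Traf6 (7.61). Ly96 and Traf6 kept the ends of the order. Cd14, Irak1 and Tirap stood higher in the order of LPS than in that of PBS, and Irak2, Irak3, Irak4 and Myd88 lower. Ticam1 kept its place. With 1 library each, the spread between neighbours in this order is unknown.

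In LPS the summit lay downstream of the outermost annotated start at 7 of the 8 genes with a known strand, the exception being Irak4, and in PBS at 7 of the 8, the exception being Myd88. Over 10885 genes with a known strand the share was 84.5% in LPS and 84.4% in PBS. The median summit of the 8 genes lay 352.5 bp downstream in LPS and 158 bp downstream in PBS. Over those 10885 genes it lay at 222 bp for LPS and 206 bp for PBS, and the difference was not tested.

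**Figure D4:**
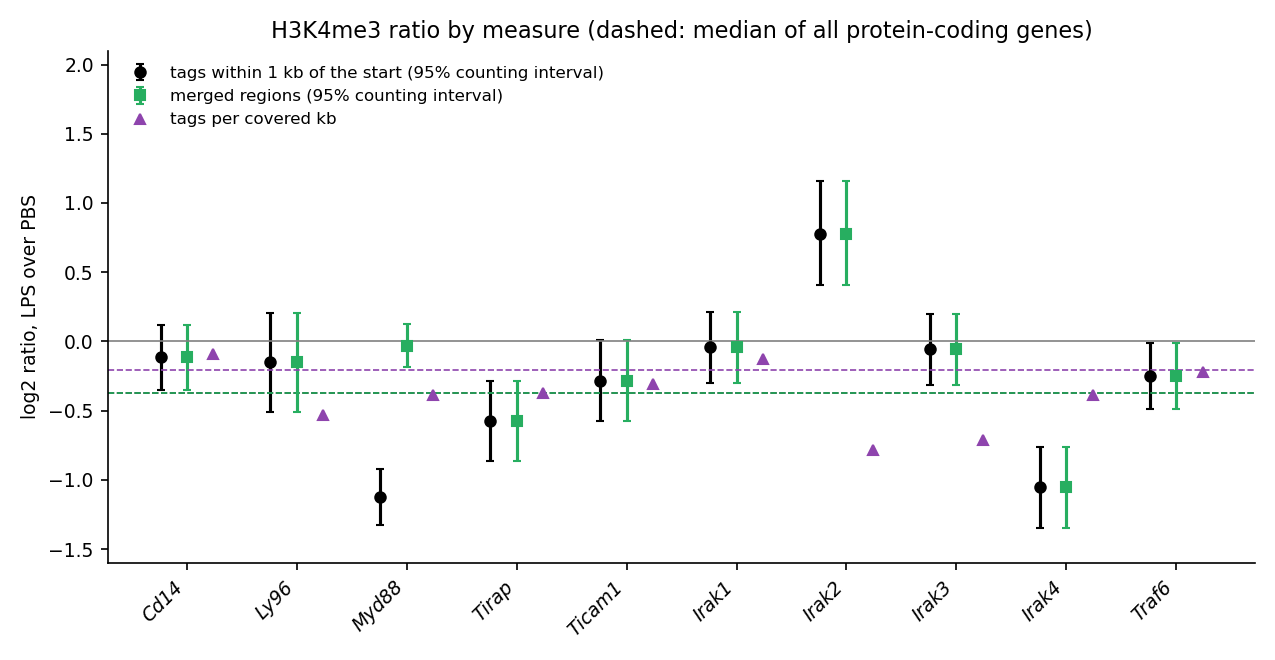
Log2 ratio of H3K4me3, LPS over PBS, for each gene by 3 measures: tags within 1 kb of the start (black circles), tags over merged regions (green squares), both with 95% counting intervals, and tags per covered kb (purple triangles); dashed lines are medians of all genes, and those of the first and second measure coincide at -0.37. Myd88 goes to -0.03 over its merged region, and Irak2 is 0.78 by tags and -0.79 per covered kb.

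H3K4me3 peaks away from the starts were listed inside 4 of the 10 genes, more than 1 kb from both ends and from every listed start of the gene itself. Such a peak was seen in 24.9% of all protein-coding genes, and in 19.1% of those within the members' range of length. Irak2 had 4 in LPS and 4 in PBS, with 401 and 267 tags in all. One of the LPS peaks was the one of 135 tags described above. Peaks that began 22069, 30603 and 52149 bp from the Irak2 start in LPS overlapped ones in PBS, with 83, 114 and 69 LPS tags and 61, 83 and 70 PBS tags. The PBS list alone had 1 of 53 tags at 36712 to 37325 bp from the start. Irak3 had 2 in each list, and those nearest to its start were at different places, 8540 to 9538 bp from the outer start in LPS (61 tags) and 12420 to 13126 bp in PBS (36 tags). Traf6 had 1 in each list, beginning 20264 bp from its start in LPS and 20207 bp in PBS, with 20 tags in LPS and 41 in PBS, and Tirap 1 in LPS, which lay 822 bp from the start of the long noncoding gene Gm39318. Most of these peaks were weak, with scores of 54.3 to 138.4. The strong peak 2034 bp beyond the far end of Irak2 in LPS and 2006 bp in PBS (399 and 564 tags) lies at the start of the next gene, Tatdn2.

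H3K9me3 peaks were listed on 2 of the 10 gene bodies. Of the 10 genes, Irak2 had a peak in both lists, Irak3 in PBS only, and 8 had none. In comparison, 35.0% of all protein-coding genes had a body peak in either list (16.1% in both, 10.5% for LPS alone, 8.37% for PBS alone), and 65.0% had none. Of the 301 genes whose length lay between those of Irak2 and Irak3, 58.8% had one. Over the members' whole range of length it was 29.5%, and 2 of 10 members is near that share. The Irak2 peaks overlapped, beginning 33476 bp from the start in LPS and 33406 bp in PBS, with 16 tags and a score of 54.5 in LPS and 19 tags and a score of 70.9 in PBS. The Irak3 peak held 14 tags at a score of 52.0. Within its own list the score lay at percentile 24.9 for the Irak2 peak in LPS, 64.4 for that in PBS and 12.7 for the Irak3 peak, and none reached 100. For the other 8 genes the mark was under the caller's limit, which does not show that it was absent.

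Beside the bodies there were H3K9me3 peaks near Ly96 and Myd88. The LPS list had a peak of 25 tags beginning 56 bp beyond the far end of Ly96, and the PBS list had one of 18 tags 1128 bp beyond it. The strongest was an LPS peak of 47 tags (score 159.7) from -2036 to -1474 bp of the Myd88 start. It lay inside the H3K4me3 region shared with Acaa1a, under the upstream H3K4me3 peak, and the PBS list had none there. An H3K9me3 peak in LPS only on the H3K4me3 region of the start was seen at Myd88 alone among the members, and at 11.5% of the genes with such a region, and in PBS only at 6.74%. H3K9me3 peaks in these libraries were narrow and shallow, with medians of 258 bp and 17 tags in LPS and 245 bp and 16 tags in PBS.

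**Figure D5:**
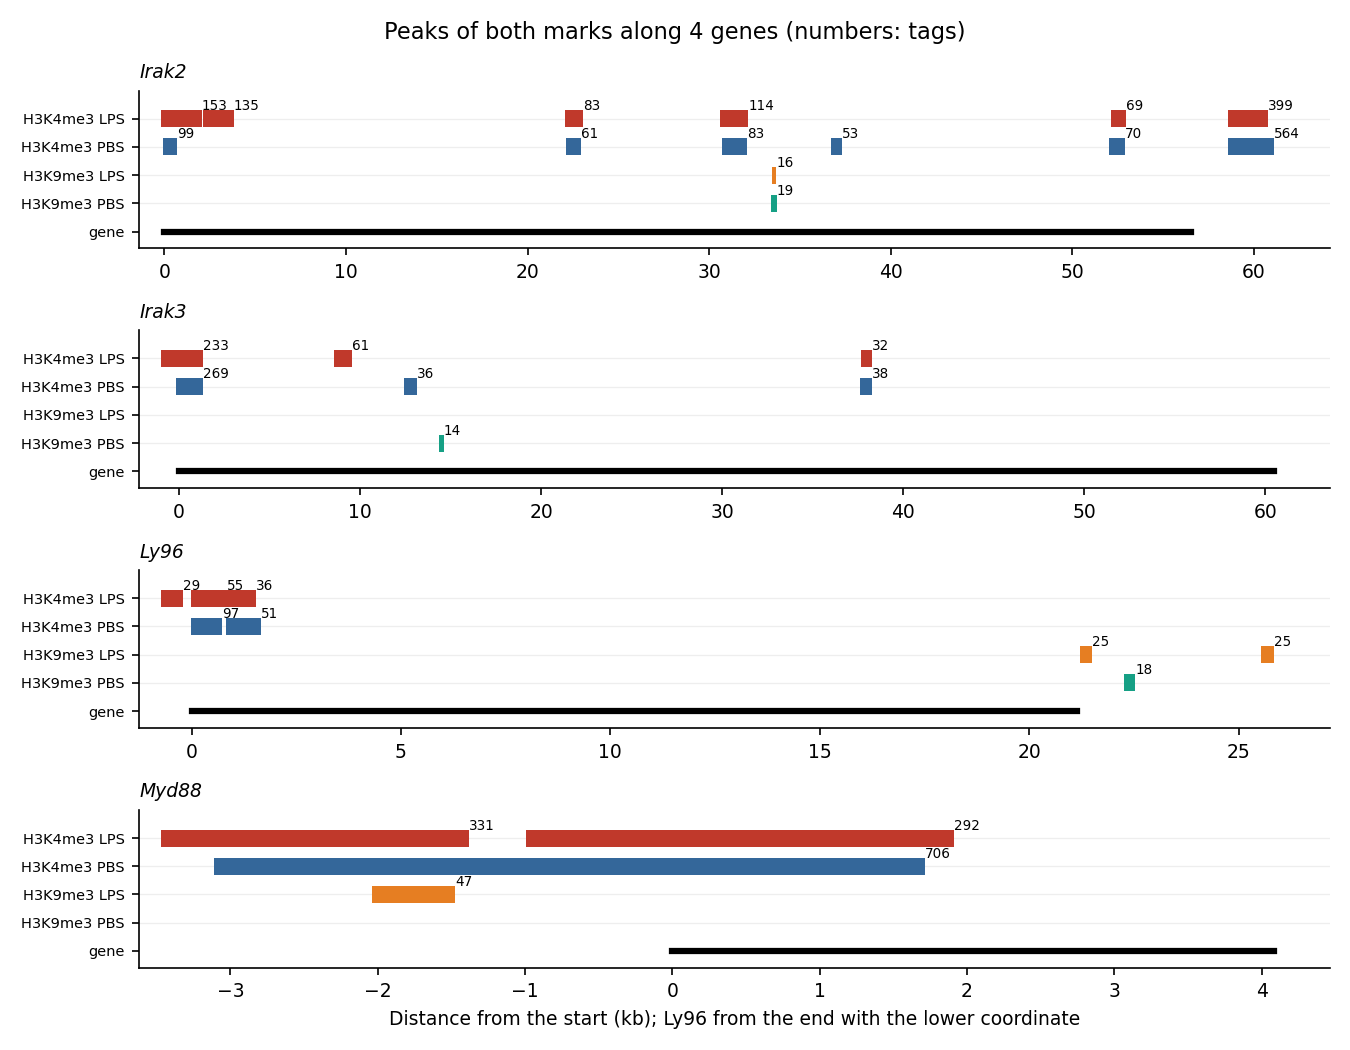
Peaks of H3K4me3 and H3K9me3 in LPS and PBS along Irak2, Irak3, Ly96 and Myd88 and 5 kb beside them, on an axis of distance from the start in kb (Ly96 from the end with the lower coordinate); the black bar is the gene and numbers are tags per peak. H3K9me3 peaks hold 14 to 47 tags, and the one with 47 tags lies upstream of Myd88 in LPS.

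The rest of the pathway was described from a list of 31 other genes. Of these, 30 had an H3K4me3 start peak in both lists and 1, Btk, in PBS only. The median log2 ratio of the 30 was -0.40, against -0.20 for the 10 members and -0.37 for all genes. Of the 30, 29 were below 0, 13 lay above the median of all genes, and none was 2-fold different at the start. Their values ran from -0.78 to 0.29. This narrower range left Irak2, Irak4 and Myd88 outside it. Over merged regions it ran from -0.76 to 0.29, and Myd88 (-0.03) lay inside. With a 2.5 kb window it ran from -1.24 to 0.29, and Irak2 (1.69) alone lay outside. Pathway genes at least 2-fold lower then numbered 1 (3.81% of all genes). They numbered 2 with scores of 100 or more (4.03%) and 3 over whole genes (4.64%).

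Lbp, which carries LPS to CD14 and is made mainly by the liver, had the highest ratio, with 88 LPS tags and 80 PBS tags (0.29, -0.17 to 0.74). The TRAF-binding adaptor gene Tifa had 461 and 530 tags (-0.05, -0.23 to 0.13). Ube2v1, a cofactor of the ubiquitin-conjugating enzyme that works with TRAF6, had 525 and 635 (-0.12, -0.29 to 0.04). The intervals of these 3 genes include 0 and lie wholly above the median of all genes (-0.37). The genes were picked as the highest of the list. The lowest was Ly86, which encodes MD-1, the partner of the TLR4-like receptor CD180, with 139 LPS tags and 264 PBS tags (-0.78, -1.08 to -0.47), or -0.32 over its merged region. Tab3, a subunit of the TAK1 kinase complex, had 126 and 237 (-0.76, -1.08 to -0.44), and Ube2n, the conjugating enzyme itself, 290 and 521 (-0.70, -0.91 to -0.49). The intervals of Ly86, Tab3 and Ube2n, picked as the lowest, lie wholly below that median. Per covered kb the sign was the opposite for the last 2, at 0.20 and 0.46, and their LPS peaks were the shorter ones. Btk, a tyrosine kinase of myeloid and B cells, had 139 tags at its start in PBS with a peak of 1.93 kb and no LPS peak within 2.5 kb. Over the whole gene it had 104 tags in LPS and 282 in PBS, the LPS tags all at the other end.

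H3K9me3 was listed on the bodies of 14 of these 31 genes, in both lists for 6 and in a single list for 8, of which 4 were LPS and 4 PBS. The other 17 had none, including Tlr4 and Lbp. The member genes and the rest of the pathway thus had body peaks at 2 of 10 and 14 of 31 genes, beside 35.0% of all genes. The lists were not matched for gene length. The longest member, Irak3, is 60483 bp long, and the pathway list holds genes of up to 160802 bp. These differences in body peaks were not tested.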

How the data were processed

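H3K4me3 and H3K9me3 were measured by ChIP-seq in 4 libraries. Per the submitters' processing notes, CASAVA 1.4, Bowtie 0.12.8, MACS 1.4.2, DiffBind and build mm10 were used. Per the file headers, the peaks of every library were called by MACS with no control, at a p threshold of 1e-05, and kept at most 1 tag per position. The deposited tables give for each peak a count of tags, a score (minus 10 times the log10 of the p-value) and a fold enrichment, the caller's ratio to local background. Positions are 1-based. Score and fold are the authors' values and were used within a list only.

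Tags of peaks that meet the window within 1 kb of an annotated start were summed and divided by the filtered tag total. Starts and strand came from a RefSeq promoter table of GRCm38.p6, the same build as mm10, for 17492 of 21887 protein-coding genes. For the others the outer gene end with more tags was used. LPS and PBS peaks that overlap or touch were merged into regions. Because whole peaks were summed, a value moves with the length called. Intervals of ratios are exact 95% Clopper-Pearson intervals and cover counting error only. With 1 library per group no test was possible. The ratio step was tested on simulated data. Python 3.11.15, pandas 2.3.3 and SciPy 1.17.1 were used. The alternatives were tags per covered kb, a 2.5 kb window, merged regions, total tags, centring on all genes, and scores of 100 or more. Using the outer gene end, or all peaks on the gene, was added after seeing the data.

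All 10 members are named. Of the pathway list, Tlr4, Lbp, the 3 highest and 3 lowest ratios among genes whose LPS and PBS tags sum to at least 100, and genes listed in 1 library only are named. The members and lists were chosen with earlier results of these data known. A further marker list is not reported here.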

Additional observations from a re-analysis of the deposited data

How the results depend on the processing

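Of the 78 values of single members under an alternative, 59 stayed within the counting interval and 19 did not. The 2.5 kb window, merged regions and outer gene end took in the same peaks for most members, so their values could not move. Total tags and centring shift every gene alike, and 10 members and 1 member stayed within the interval. The count is thus no measure of stability. The median log2 ratio of the 10 members at the start was -0.20. It was -0.38 per covered kb, -0.10 with total tags as the scale and 0.17 with the median of all genes set to 0. Over merged regions it was -0.13, with -0.34, -0.031 and 0.24 in the same order. For the other pathway genes it was -0.40, with -0.27, -0.30 and -0.030. The 2 members at least 2-fold lower in LPS became 1 with a window of 2.5 kb, over merged regions, with scores of 100 or more and with total tags, where 3.81%, 3.39%, 4.03% and 2.67% of all genes were, and 0 per covered kb or with the median set to 0 (0.074% and 1.21%). The count at least 2-fold higher, 0, became 1 (Irak2) with a window of 2.5 kb and with the median set to 0 (0.43% and 1.05%). The 2 genes with H3K9me3 on the body became 0 at scores of 100 or more, where 10.3% of all genes had it, and 3 with the body extended by 1 kb (36.8%), where Ly96 joined. Both lists still held a start peak of 8 members at scores of 100 or more. No paired analysis was possible because each group held 1 library, and no library could be left out for the same reason.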
